A study of Mus musculus with 4 samples.

Results

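The genes described here encode factors that choose splice sites and the RNA-binding proteins that set neuronal splicing patterns. Their transcripts were measured on 3' expression arrays in tissue punches of the prelimbic cortex, in the medial prefrontal wall. The fluoxetine group was 2 arrays of males with prenatal exposure to fluoxetine, an antidepressant that blocks serotonin reuptake. The untreated group was 2 arrays of control males, and all mice were studied on postnatal day 90. The samples are described as biological duplicates, and strain, dose, time of exposure, litter and any pooling of animals are not stated in the labels. Genes were taken by symbol from probe sets annotated to 1 symbol only: the Srsf, Tra2, Clk, L cyclin, Hnrnp, Sf3a, Sf3b, U2af, Luc7l, Rbfox, Celf, Nova, Ptbp, Mbnl, Elavl, Khdrbs and numbered Rbm genes. The rule found 112 genes among 18193, read by 334 probe sets among 34945. Another 19 probe sets that list such a symbol beside others were left unnamed. Rbm3, Srsf7 and Srsf8 are not analysed here.

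SR proteins bind enhancer sequences in exons and recruit the spliceosome, and their activity depends on phosphorylation by SRPK and CLK kinases. Heterogeneous nuclear ribonucleoproteins (hnRNPs) often act against them, while the U2 auxiliary factor and the SF3a and SF3b subunits of the U2 particle recognise the branch point and the end of the intron. In neurons, Rbfox, Nova, Celf, Mbnl, Ptbp2, Elavl and Khdrbs proteins are added to this machinery and set alternative exons of synaptic and cytoskeletal genes. Many genes of splicing factors also splice their own transcripts into forms that stay in the nucleus or are degraded. A 3' expression array reads transcript levels and not exon use, so that splicing itself was not measured.

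All values are log2 intensities, and a difference is the fluoxetine mean minus the untreated mean. Of the 112 genes, 22 passed an unadjusted p below 0.05 in limma, a share of 19.6%, against 6.96% of all genes tested. Among them 19 were higher with fluoxetine, 17.0% of the 112 against 3.45% of all genes, and 3 were lower, 2.68% against 3.51%. None passed after Benjamini-Hochberg adjustment over all genes: in limma 0 of 112 and 0 of 18193 had an adjusted p below 0.05, the background being 0%. The lowest adjusted p among the 112 was 0.635. Levels of 97 of the 112 lay above the median of all genes, 7.87, where the background was also higher. There 17 of the 97 were higher, against 5.73% of all genes above that level, and 2 were lower, against 2.17%. Both fluoxetine arrays lay above both untreated arrays for 30 genes, against a background of 15.5%, and below them for 16, against 22.3%. Above the median level these were 26 and 13 of the 97, against 1983 and 1537 of the 9096 genes at that level. Differences were above 0 for 70 genes, 62.5% of the 112 against 42.5% of all genes. Above the median level they were above 0 for 63 of the 97, against 4722 of the 9096. The median difference was 0.03 over the 112 genes and -0.02 over all genes. Above the median level the medians were 0.03 and 0.003.

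These counts moved with 1 array and with the scaling. The 19 higher and 3 lower genes became 6 and 0 without fluoxetine replicate 1 and 15 and 0 without replicate 2 of that group. Leaving out untreated replicate 1 gave 9 and 3, and leaving out replicate 2 gave 21 and 2. Over all genes the counts with the same arrays left out were 181 and 188, 620 and 507, 565 and 1151, and 909 and 650. For the 112 genes they were 13 and 7 after another quantile normalization and 27 and 1 after subtracting array medians. Over all genes the split of 628 higher and 638 lower became 572 and 1113, and 1119 and 498, under the same scalings.

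**Figure D1:**
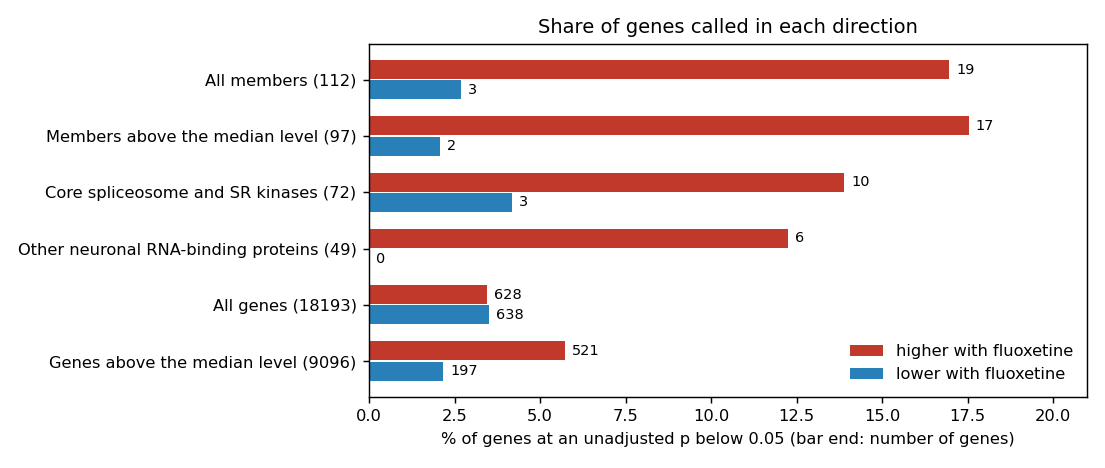
Share of genes at an unadjusted p below 0.05 in limma, in %, for the 112 splicing and RNA-binding genes, for those above the median level, for further lists of spliceosome and RNA-binding genes, and for all genes tested; the number at a bar's end counts genes. The upper bar of each pair (higher with fluoxetine) is 17.0% for the 112 genes and 3.45% for all genes, and the lower bar (lower with fluoxetine) 2.68% and 3.51%.

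The arrays were close to each other: their medians were 6.44 and 6.47 (fluoxetine) and 6.50 and 6.48 (untreated), and correlations over all probe sets were 0.996 to 0.997. The fluoxetine arrays had the highest correlation, 0.9972, but the untreated arrays did not sort by group. The untreated arrays correlated at 0.9963, while fluoxetine replicate 2 reached 0.9970 with untreated replicate 1 and 0.9967 with untreated replicate 2. Untreated replicate 1 had the lowest upper quartile, 8.68 against 8.75 to 8.78 on the other arrays. Of 6 markers of cortical excitatory neurons 5 were measured, with mean levels of 9.48 to 13.92. The poly-A transcripts spiked in before labelling stood higher with fluoxetine, by a median of 0.24 over 24 probe sets, of which 17 had both fluoxetine arrays on top. The 9 hybridization control probe sets had a median of 0.04 and all overlapped. The 8 measured of 10 markers of striatal medium spiny neurons averaged 8.85 and 9.18 on the fluoxetine arrays, against 9.05 and 10.03 on the untreated arrays, where untreated replicate 2 stood apart. The 9 measured of 10 myelin markers averaged 11.12 and 11.10 with fluoxetine, against 11.10 and 11.39 without. Of 7 astrocyte markers 2 were higher (Slc1a3 by 0.21, Slc1a2 by 0.10) and 4 had both fluoxetine arrays on top, while Gfap differed by -0.13. Of 5 meningeal fibroblast markers 2 were higher (Dcn by 0.23, Col1a2 by 0.20), while Col1a1 differed by -0.12. The excitatory marker Neurod6 was higher (0.24), while Camk2a and Nrgn differed by -0.03 each, Slc17a7 by 0.01 and Tbr1 by 0.06. The myelin markers Mag (-0.24) and Sox10 (-0.26) and the striatal marker Syndig1l (-0.61) were lower, while the myelin marker Mbp differed by 0.02. Over all genes 3.45% were higher, 3.51% lower, and 15.5% had both fluoxetine arrays on top. The 3' minus 5' control signal, a gauge of RNA integrity, differed by -0.09 for Actb, -0.04 for Gapdh, 0.15 for Tfrc and 0.14 for Pcx. The part of these in the differences below was not tested, and in bulk tissue fewer cells of a type and less RNA per cell cannot be told apart.

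Of 18 genes of the Srsf, Tra2, Clk and L cyclin families, 7 were higher with fluoxetine, 0 lower and 11 did not pass, with a median difference of 0.12. The 7 are 38.9% of these genes, against 3.45% of all genes and 5.73% of genes above the median level, where all 18 lie. The 7 became 4 without fluoxetine replicate 1, 9 without fluoxetine replicate 2, 6 without untreated replicate 1, and 5 with 1 lower without untreated replicate 2. They were 5 after another quantile normalization, 9 with array medians subtracted and 4 without the intensity trend in limma. The poly-A spikes were 0.24 higher on the same arrays, and their part in these counts was not tested.

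Clk1 encodes a nuclear kinase that phosphorylates SR proteins. It read 10.62 and 10.54 on the fluoxetine arrays, against 10.20 and 10.23 on the untreated arrays. The groups were separated by a gap wider than the spread within either. The difference was 0.37 (SE 0.05; 1.29-fold; limma, unadjusted p = 0.00023, adjusted p = 0.635), the smallest p among the 112 genes. Clk4, its closest relative, read 8.99 and 8.98 with fluoxetine and 8.67 and 8.76 without. Again both fluoxetine arrays lay on top, by 0.27 (SE 0.07; unadjusted p = 0.0063, adjusted p = 0.696), and its other probe set differed by 0.28. Both genes kept an unadjusted p below 0.05 with each array left out, with differences of 0.33 to 0.40 for Clk1 and 0.22 to 0.32 for Clk4.

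The other kinases of the family showed no such gap. Clk2 read 9.14 and 9.15 with fluoxetine, inside the untreated values of 9.07 and 9.20, and Clk3 read 9.23 and 9.26 inside 9.14 and 9.34. The 95% intervals of their differences were -0.15 to 0.18 and -0.18 to 0.20. L cyclins are partners of CDK11 kinases that sit in nuclear speckles. Ccnl1 stood at 9.40 and 9.28 with fluoxetine and 9.18 and 9.15 without (difference 0.17, SE 0.07; limma, unadjusted p = 0.044, adjusted p = 0.707). That call ended without fluoxetine replicate 1, where the difference was 0.11, and without either untreated array (0.18 and 0.16). Ccnl2 overlapped, at 9.23 and 9.33 with fluoxetine against 9.20 and 9.24.

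Among 10 Srsf genes, 3 were higher, 0 lower and 7 did not pass, where 3.45% of all genes were higher and 3.51% lower. Srsf10 encodes an SR protein that represses splicing once dephosphorylated, as after heat shock. It read 9.76 and 9.79 with fluoxetine, against 9.43 and 9.52 without. The groups did not overlap, and the difference was 0.30 (SE 0.06; limma, unadjusted p = 0.0017, adjusted p = 0.696). With an array left out it stayed between 0.26 and 0.35. Its 3 other probe sets differed by 0.27, 0.08 and 0.57. Srsf2, a constitutive SR protein that also binds exonic enhancers, read 11.49 and 11.44 with fluoxetine and 11.35 and 11.21 without. The difference of 0.18 (SE 0.06; unadjusted p = 0.015, adjusted p = 0.696) did not pass without fluoxetine replicate 1 (0.16) or untreated replicate 2 (0.11).

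Srsf1, the founding member of the family, read 11.09 and 10.99 with fluoxetine, against 10.94 and 10.88 without (difference 0.13, SE 0.05; limma, unadjusted p = 0.044, adjusted p = 0.705). Its call ended without fluoxetine replicate 1 (0.09), where the value fell by over a factor of 1.5, and without untreated replicate 2 (0.10). Of its 7 probe sets, 6 had differences of 0.13 to 0.40, and the dimmest differed by -0.09. Srsf3, which also couples splicing to export, lay at 11.46 and 11.39 against 11.30 and 11.34, with a difference of 0.11 and an unadjusted p of 0.055. Srsf6 leaned the other way, at 10.88 and 10.84 with fluoxetine and 11.01 and 10.90 without (-0.09, unadjusted p = 0.143), while 1 of its other probe sets differed by 0.18. Srsf4, Srsf5, Srsf9, Srsf11 and Srsf12 had overlapping groups and differences of -0.05 to 0.17.

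Tra2 proteins are relatives of the SR proteins that bind GAA-rich enhancers. Tra2b read 11.84 and 11.79 with fluoxetine, against 11.63 and 11.64 without, so that the groups stood apart. Its difference was 0.18 (SE 0.04; limma, unadjusted p = 0.0036, adjusted p = 0.696), and 0.16 to 0.21 with an array left out. The next brightest of its 5 probe sets also differed by 0.18, and the remaining 3, with mean levels of 2.86 to 5.07, differed by -0.19 to 0.47. Tra2a had a larger difference, 0.30, but did not pass (SE 0.14, unadjusted p = 0.066): untreated replicate 2 at 9.20 lay above fluoxetine replicate 2 at 9.17. Of its 5 dimmer probe sets 1 passed, at 0.41.

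**Figure D2:**
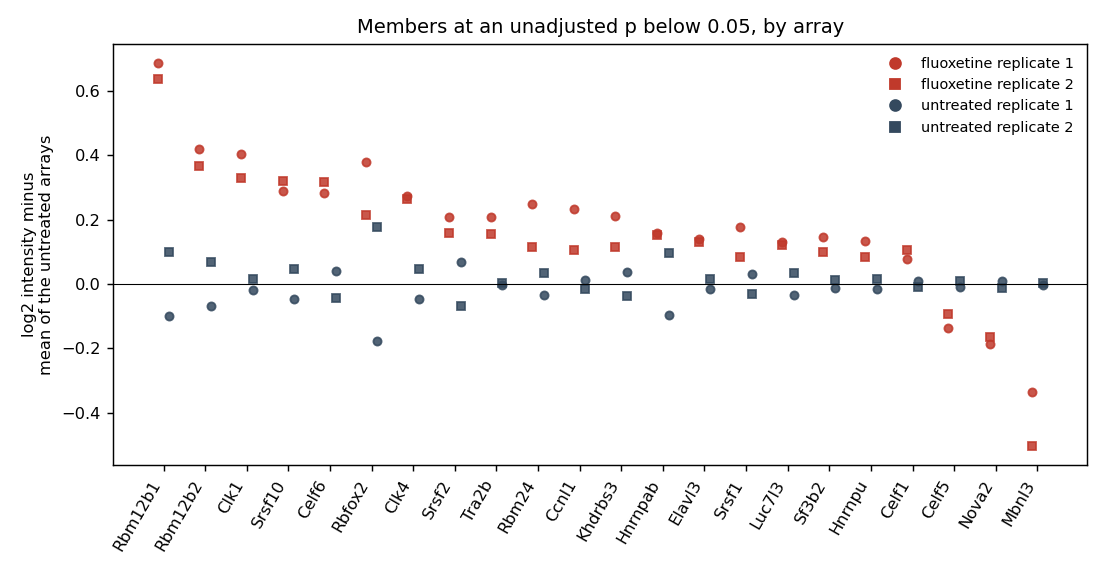
Log2 intensity of the 22 genes at an unadjusted p below 0.05, each relative to the mean of its untreated arrays, by array (fluoxetine left of untreated, circles replicate 1, squares replicate 2). Clk1 at 0.37, Srsf10 at 0.30 and Celf6 at 0.30 show wide gaps between the groups, while the untreated arrays of Rbfox2 lie far apart.

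Promoters of the called genes of these families are shown because these 7 genes passed in the same direction. RefSeq windows (build GRCm38.p6) were matched for 6 of the 7, Clk1 being the other, and the 250 bases before the annotated start are given 5' to 3' on the gene's strand. Capitals mark letters matched on either strand by any of 6 motifs: the cAMP response element (TGACGTCA), the ETS site (CCGGAAG), the CCAAT box (CCAAT), the GC box (GGGCGG), the TATA box (TATAAA) and the heat shock element of 3 alternating units. Neighbouring matches run together where they overlap or touch. Any window of these genes on a chromosome not listed here was left out of the display, while the shares given below count all windows.
Clk4, chr11:51262864-51263113, strand plus: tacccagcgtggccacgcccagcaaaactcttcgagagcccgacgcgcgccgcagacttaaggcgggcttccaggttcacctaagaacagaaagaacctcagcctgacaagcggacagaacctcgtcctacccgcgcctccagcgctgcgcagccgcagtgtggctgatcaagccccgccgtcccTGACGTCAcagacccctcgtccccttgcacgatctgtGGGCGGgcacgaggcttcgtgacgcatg
Ccnl1, chr3:65958250-65958499, strand minus: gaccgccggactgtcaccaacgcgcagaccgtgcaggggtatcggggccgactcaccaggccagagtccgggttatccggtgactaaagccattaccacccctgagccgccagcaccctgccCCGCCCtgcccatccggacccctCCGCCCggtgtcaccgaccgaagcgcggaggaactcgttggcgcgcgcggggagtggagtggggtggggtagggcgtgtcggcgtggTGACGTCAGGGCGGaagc
Srsf10, chr4:135855821-135856070, strand plus: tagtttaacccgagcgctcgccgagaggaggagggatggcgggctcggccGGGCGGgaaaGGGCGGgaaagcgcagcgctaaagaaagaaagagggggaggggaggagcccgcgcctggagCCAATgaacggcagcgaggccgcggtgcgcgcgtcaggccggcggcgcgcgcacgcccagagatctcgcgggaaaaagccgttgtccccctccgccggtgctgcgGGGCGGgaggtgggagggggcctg
Srsf2, chr11:116853095-116853344, strand minus: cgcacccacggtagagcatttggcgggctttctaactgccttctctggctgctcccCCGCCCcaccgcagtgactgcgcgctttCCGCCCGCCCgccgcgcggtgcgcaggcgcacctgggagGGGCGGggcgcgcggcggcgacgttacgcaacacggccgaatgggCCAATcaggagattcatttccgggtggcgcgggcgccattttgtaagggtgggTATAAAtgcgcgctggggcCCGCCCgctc
Srsf1, chr11:88047123-88047372, strand plus: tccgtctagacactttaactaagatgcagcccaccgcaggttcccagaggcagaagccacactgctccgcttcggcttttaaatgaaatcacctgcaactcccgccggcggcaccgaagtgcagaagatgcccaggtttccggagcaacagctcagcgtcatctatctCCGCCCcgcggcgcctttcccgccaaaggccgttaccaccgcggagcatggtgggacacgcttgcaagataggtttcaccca
Tra2b, chr16:22266006-22266255, strand minus: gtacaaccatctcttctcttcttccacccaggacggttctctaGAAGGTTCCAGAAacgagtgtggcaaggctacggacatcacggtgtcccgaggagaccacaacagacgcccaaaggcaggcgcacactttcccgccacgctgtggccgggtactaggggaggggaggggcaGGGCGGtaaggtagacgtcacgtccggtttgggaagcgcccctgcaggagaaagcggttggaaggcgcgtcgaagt

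A GC box was found in all 6 windows, and in 32.7% of the 32851 windows of all genes. The 6 windows were 58.8% to 72.0% G and C, against a median of 52.4% over all windows. The cAMP response element stood in the windows of Clk4 and Ccnl1, and in 1.55% of all windows. The heat shock element was matched for Tra2b alone among the 6, and in 0.466% of all windows. A TATA box was matched for Srsf2, and in 12.4% of all windows, and a CCAAT box for Srsf2 and Srsf10, and in 33.8%. No ETS site was matched in the 6, against 6.91% of all windows. Over the 136 windows of the splicing and RNA-binding genes the shares were 55.9% for the GC box, 5.15% for the cAMP response element and 16.2% for the ETS site. These are matches of letters and say nothing of binding in these mice.

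At their brightest probe sets the hnRNPs differed by -0.05 to 0.16. Of 19 genes, 2 were higher, 0 lower and 17 did not pass, 10.5% and 0% against 3.45% and 3.51% of all genes. All 19 lie above the median level, where 5.73% of genes were higher and 2.17% lower. Dimmer probe sets reached further: that of Hnrnph1 differed by 0.48 (unadjusted p = 0.032) and 1 of Hnrnpab by -0.48 (unadjusted p = 0.013), with adjusted p of 0.485 and 0.418 in limma over all probe sets. Hnrnpu, a nuclear scaffold protein, read 12.29 and 12.24 with fluoxetine, against 12.14 and 12.17 (difference 0.11, SE 0.04; limma, unadjusted p = 0.032, adjusted p = 0.705). Its 4 other probe sets differed by 0.10 to 0.35, but the call ended without either fluoxetine array (0.08 and 0.13) or untreated replicate 1 (0.09). Hnrnpab, named because it passed, read 11.998 and 11.993 with fluoxetine against 11.743 and 11.937 without (difference 0.16, unadjusted p = 0.046, adjusted p = 0.709). That value was 0.06 without untreated replicate 1 and 0.25 without untreated replicate 2, and its call also ended without either fluoxetine array (0.15 and 0.16). Its 6 other probe sets ran from -0.48 to 0.10. Hnrnpdl, an AU-rich element binding paralogue of Hnrnpd, read 13.02 and 13.07 with fluoxetine and 13.09 and 13.09 without, and did not pass (-0.05, unadjusted p = 0.227).

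Of 12 genes for recognition of the branch point and the 3' splice site, 1 was higher, 0 lower and 11 did not pass. That is 8.33% and 0%, against 3.45% and 3.51% of all genes. Above the median level, where all 12 lie, 5.73% of genes were higher and 2.17% lower. Differences were below 0 for 8 of the 12, against 10464 of all 18193 genes and 4374 of the 9096 genes above the median level. The medians were -0.03, -0.02 and 0.003. For 5 genes the groups did not overlap, with both fluoxetine arrays below both untreated arrays. The background was 22.3% of all genes, and 1537 of the 9096 above the median level. The 5 genes were Sf3a2 (-0.12), Sf3b3 (-0.10), U2af1 (-0.06), U2af1l4 (-0.10) and U2af2 (-0.10), with unadjusted p of 0.065 to 0.276 in limma. The second probe sets of Sf3a2 (0.23) and Sf3b3 (0.08) differed the other way without passing, and the other 3 genes had 1 probe set each. Sf3b2, an SF3b subunit next to the branch point, was the higher gene, at 11.31 and 11.27 against 11.15 and 11.18 (difference 0.12, SE 0.05; limma, unadjusted p = 0.030, adjusted p = 0.705). It did not pass without either fluoxetine array or untreated replicate 1 (0.10 to 0.15), and its 6 other probe sets ran from -0.21 to 0.33. Sf3b1, the subunit that clamps the branch helix, overlapped at 11.60 and 11.53 against 11.49 and 11.58, while 2 of its 3 other probe sets passed, at 0.29 and 0.18.

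LUC7-like proteins are relatives of yeast Luc7, a component of the U1 particle, which pairs with the start of the intron. All 3 differences were positive, and Luc7l3 passed, at 11.43 and 11.42 with fluoxetine against 11.26 and 11.34 (0.13, SE 0.05; limma, unadjusted p = 0.029, adjusted p = 0.705). Without either fluoxetine array or untreated replicate 1 it did not pass (0.09 to 0.13). A dimmer probe set of the gene showed more, at 9.74 and 9.35 against 9.01 and 8.81.

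**Figure D3:**
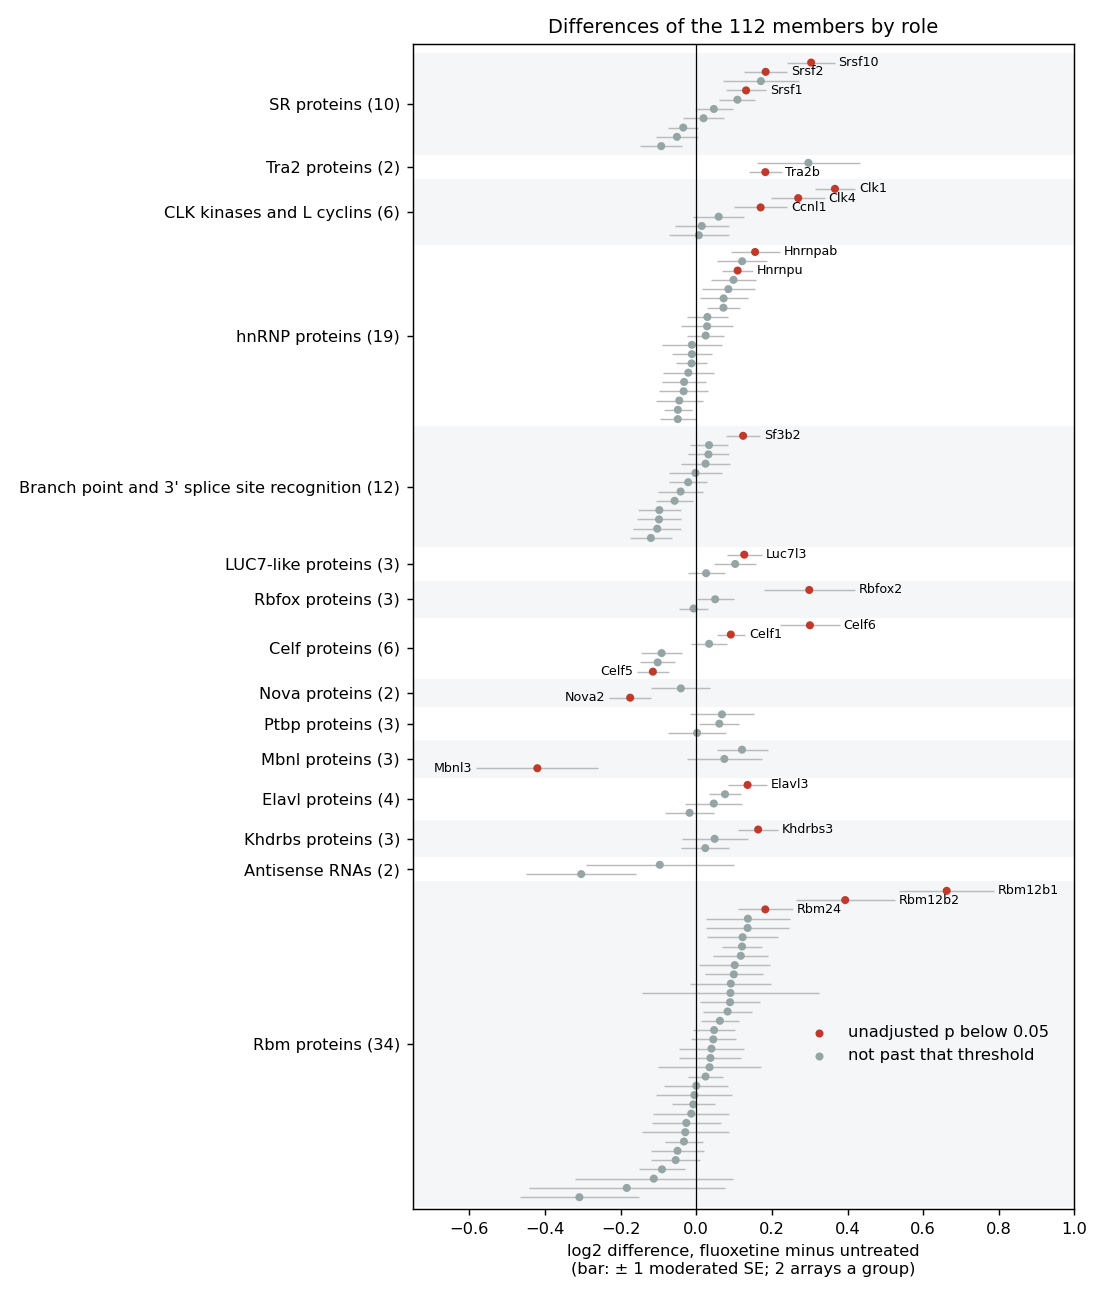
Log2 difference, fluoxetine minus untreated, of each of the 112 genes (points, ± 1 moderated SE, 2 arrays a group), ordered within its role; the number after a role counts its genes, and named red points had an unadjusted p below 0.05 in limma. Points of the kinase and Tra2 rows all lie right of 0, while 8 of the 12 branch point and splice site genes lie left of it.

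The neuronal families held genes called in both directions. Of 24 Rbfox, Celf, Nova, Ptbp, Mbnl, Elavl and Khdrbs genes, 5 were higher, 3 lower and 16 did not pass, with a median difference of 0.05. These are 20.8% and 12.5%, against 3.45% and 3.51% of all genes. Above the median level, where 23 of the 24 lie, 5.73% of genes were higher and 2.17% lower. Of the 3 lower genes, Mbnl3 (mean level 3.76) lies below that level. Leaving out fluoxetine replicate 1 gave 1 and 0, fluoxetine replicate 2 gave 3 and 0, untreated replicate 1 gave 2 and 2, and untreated replicate 2 gave 4 and 1. Another quantile normalization gave 3 and 4, subtraction of array medians 7 and 1, and a fit without the intensity trend 1 and 2.

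Rbfox proteins bind GCAUG in introns and act as enhancers or silencers by position. Rbfox3, the antigen that NeuN antibodies detect, read 13.37 and 13.31 with fluoxetine, against 13.33 and 13.37 without, so that the groups overlapped. Its difference was -0.01, with a 95% interval of -0.10 to 0.09, but a second probe set was lower, at 11.02 and 11.18 with fluoxetine against 11.28 and 11.30. Rbfox1, linked to autism and epilepsy, also depended on the probe set. Its brightest overlapped at 12.92 and 12.82 against 12.78 and 12.86. The next 2 did not, at 12.05 and 11.96 with fluoxetine against 11.73 and 11.67 (0.30), and at 11.10 and 10.94 against 10.86 and 10.70 (0.24), with unadjusted p of 0.00052 and 0.018 and adjusted p of 0.331 and 0.430 in limma over all probe sets. Rbfox2, the broadly expressed member, read 9.49 and 9.33 against 8.93 and 9.29 (0.30, SE 0.12; unadjusted p = 0.041, adjusted p = 0.705). Its value was 0.12 without untreated replicate 1, where the call ended, and 0.48 without untreated replicate 2. The call also ended without fluoxetine replicate 1 (0.22). Its 3 other probe sets ran from -0.08 to 0.11.

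Celf proteins bind GU-rich elements in nucleus and cytoplasm, and 5 of their 6 genes had groups that did not overlap: 2 lay above and 3 below, where 15.5% and 22.3% of all genes did. Above the median level, where all 6 lie, 1983 and 1537 of 9096 genes did. Celf6 was higher, at 8.40 and 8.43 with fluoxetine against 8.16 and 8.07 (0.30, SE 0.08; limma, unadjusted p = 0.0064, adjusted p = 0.696), and did not pass without fluoxetine replicate 2 (0.28). Celf1 was slightly higher, at 12.63 and 12.66 against 12.56 and 12.55 (0.09), and Celf5 lower, at 11.72 and 11.76 against 11.85 and 11.87 (-0.11), with unadjusted p of 0.043 and 0.029 and adjusted p of 0.705 each. Neither of them passed with any 1 array left out. Celf2 (-0.10) and Celf3 (-0.09) lay below on both fluoxetine arrays without passing, and Celf4 overlapped (0.03), while 1 of its 2 other probe sets passed at 0.13.

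Nova proteins bind clusters of YCAY repeats and control exons of inhibitory synapse genes. Nova2 was lower, at 9.76 and 9.78 with fluoxetine against 9.95 and 9.93 without. The arrays of each group lay within 0.03 of each other, and the difference was -0.17 (SE 0.06; limma, unadjusted p = 0.015, adjusted p = 0.696). Without either fluoxetine array it did not pass (-0.16 and -0.19), and its dim second probe set differed by -0.29. Nova1 overlapped, at 10.16 and 9.95 against 10.13 and 10.06, with a 95% interval of -0.23 to 0.14.

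Of the remaining neuronal families, Elavl proteins stabilise AU-rich transcripts. The neuronal Elavl3 was higher, at 10.41 and 10.40 against 10.26 and 10.29 (0.14, SE 0.05; limma, unadjusted p = 0.031, adjusted p = 0.705), and passed with 1 array left out only when that array was untreated replicate 2 (0.15). Elavl1, Elavl2 and Elavl4 differed by -0.02, 0.08 and 0.05 at their brightest probe sets and did not pass. Among their other probe sets 1 of Elavl4 (0.37) and 1 of Elavl2 (0.24) were higher, and 1 of Elavl2 (-0.33) and 1 of Elavl1 (-0.57) were lower, with unadjusted p of 0.010 to 0.036 and adjusted p of 0.410 to 0.498 in limma over all probe sets. Khdrbs3, whose product regulates neurexin exons, was higher, at 11.76 and 11.66 with fluoxetine against 11.58 and 11.50 (0.16, SE 0.05; unadjusted p = 0.017, adjusted p = 0.696). It did not pass without fluoxetine replicate 1 (0.11) or untreated replicate 2 (0.13). Khdrbs1 and Khdrbs2 differed by 0.02 and 0.05 without passing, and 1 of the 6 other probe sets of Khdrbs1 passed at 0.18.

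Ptbp1, which represses neuronal exons outside neurons, and its neuronal paralogue Ptbp2 overlapped, as did Ptbp3, with differences of 0.07, 0.06 and 0.00. Mbnl proteins, which antagonise Celf proteins at many exons, did not pass at the brightest probe sets of Mbnl1 (0.12) and Mbnl2 (0.07). A second probe set of Mbnl2 did, at 10.57 and 10.47 with fluoxetine against 10.14 and 10.32 (0.29; limma over all probe sets, unadjusted p = 0.0060, adjusted p = 0.382). Mbnl3 was lower, at 3.63 and 3.47 against 3.97 and 3.97, a level under which 9.77% of genes lay. Its difference of -0.42 (unadjusted p = 0.034) did not pass with any 1 array left out, and its 2 other probe sets differed by 0.26 and 0.11.

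Among 34 numbered Rbm genes, 3 were higher, 0 lower and 31 did not pass, 8.82% and 0% against 3.45% and 3.51% of all genes. Above the median level, where 22 of the 34 lie, 5.73% of genes were higher and 2.17% lower. Of the 3 higher genes only Rbm24 lies above that level. Rbm12b1 had the largest difference of the 112 genes, at 6.63 and 6.58 with fluoxetine against 5.84 and 6.04 (0.66, SE 0.13; 1.58-fold; limma, unadjusted p = 0.0011, adjusted p = 0.696). With an array left out the difference was 0.56 to 0.76, and the gene's second probe set differed by 0.21 without passing. Its paralogue Rbm12b2 read 5.92 and 5.87 against 5.43 and 5.57 (0.39, SE 0.13; unadjusted p = 0.019, adjusted p = 0.696), and passed with 1 array left out only without untreated replicate 2 (0.46). Both lie below the median level, and whether probes of one copy read the other was not tested. Rbm24, a splicing regulator best known in muscle and named because it passed, read 9.38 and 9.25 against 9.10 and 9.17 (0.18, unadjusted p = 0.040) and lost its call without fluoxetine replicate 1 (0.12) or untreated replicate 1 (0.15). The 2 antisense RNAs that the symbol rule also took, Rbm46os and Rbm3os, lay at or below 5.25 and did not pass.

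The other probe sets of these genes read the same RNA and are no further replicates. Of the 112 genes, 80 had more than 1 probe set, and in 27 of these all differences had one sign. The 222 other probe sets included 46 that were higher and 5 that were lower at an unadjusted p below 0.05 in the fit of all probe sets, 20.7% and 2.25%. Over the 16752 other probe sets of all genes these shares were 9.81% and 2.66%. Above the median level 35 of 115 were higher, 30.4%, against 19.9% of such probe sets over all genes. Of the 334 probe sets, 71 had an unadjusted p below 0.05 in limma, 21.3% against 9.45% of all. They were 63 higher, against 6.4% of all, and 8 lower, against 3.04%. None passed adjustment, the lowest adjusted p being 0.331, and 1 of the 34945 did, 0.00286%.

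Of the 222 other probe sets, 156 differences were positive and 66 negative. Over the 16752 other probe sets of all genes, 8898 were positive and 7854 negative. Above the median level 95 of 115 were positive, against 3576 of 5132 over all genes. Negative ones among the 222 included Ptbp3 (-0.38), Rbm17 (-0.36), Rbm4b (-0.35) and Rbm42 (-0.33). Among these genes only Rbm4b had a lower probe set that passed. The genes described next were chosen for positive differences at probe sets other than the brightest. Rbm5, a tumour suppressor protein that acts on splice site pairing, overlapped with its brightest probe set, at 11.18 and 11.22 with fluoxetine against 11.16 and 11.20. A dimmer one stood far apart, at 6.75 and 6.62 with fluoxetine against 5.67 and 5.77 without, a difference of 0.96 (SE 0.12; limma over all probe sets, unadjusted p = 0.0001, adjusted p = 0.331). Of the remaining 3, the probe sets at 8.72 and 6.52 differed by 0.40 and 0.45, and the dimmest, at 4.52, by 0.03. Rbm39, a U2AF-like factor, had 12 probe sets with differences of -0.18 to 0.67, and 0.12 at the brightest. Rbm25, which bridges U1 to exonic enhancers, differed by 0.06 at its brightest probe set and by 0.16 to 0.76 at its 5 others, 4 of which passed. For Hnrnpa2b1, a transport and splicing factor, the brightest probe set differed by 0.10 and the 3 others, all passing, by 0.20 to 0.24. The second probe set of Luc7l3 differed by 0.63, that of Celf1 with a mean of 8.44 by 0.51, and that of Hnrnpu with a mean of 10.25 by 0.35, all higher with fluoxetine. Which transcript forms these probe sets read was not analysed here.

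**Figure D4:**
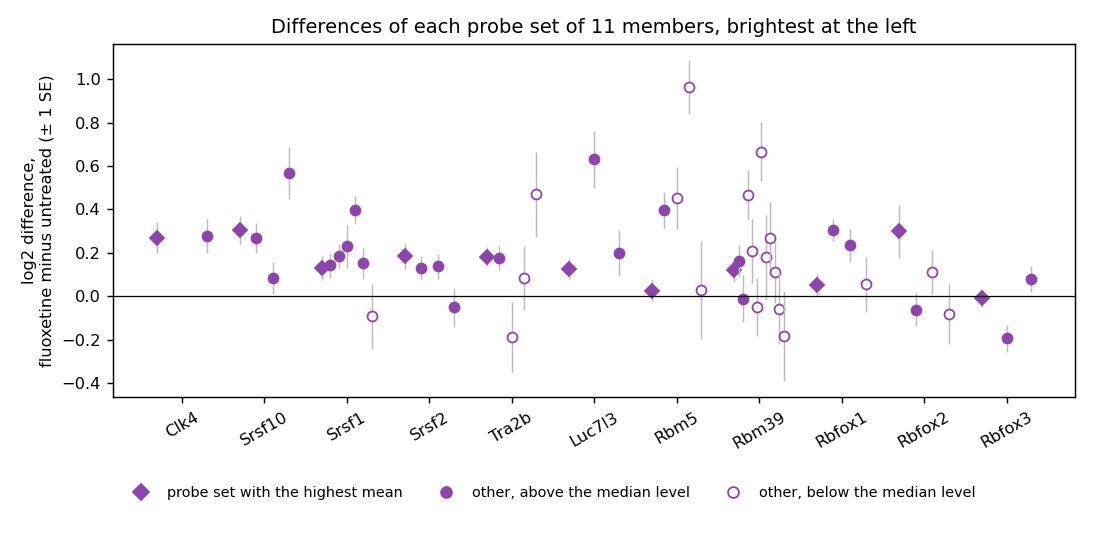
Log2 difference, fluoxetine minus untreated, of every probe set of 11 genes (± 1 SE), ordered by mean level from the brightest at the left; diamonds are the brightest probe set, filled circles others above the median level, open circles others below it. In Rbm5 the brightest probe set lies at 0.02 and a dim one at 0.96, while both probe sets of Clk4 lie near 0.27.

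Genes of the same pathway outside the symbol rule were read from 2 further lists. Of 72 measured genes of the core spliceosome and SR kinases, 10 were higher, 3 lower and 59 did not pass. These are 13.9% and 4.17%, against 3.45% and 3.51% of all genes. Above the median level, where 65 of the 72 lie, 5.73% of genes were higher and 2.17% lower. Of the 3 lower genes, Eif4a3 (mean level 5.28) lies below that level. Leaving out fluoxetine replicate 1 gave 3 and 0, fluoxetine replicate 2 gave 5 and 1, untreated replicate 1 gave 5 and 6, and untreated replicate 2 gave 12 and 1. Another quantile normalization gave 7 and 7, subtraction of array medians 15 and 3, a fit without the intensity trend 3 and 1, and the mean of all probe sets 4 and 3. Srpk2, an SR protein kinase abundant in brain, read 12.01 and 11.71 with fluoxetine against 11.51 and 11.26 (0.47, SE 0.11; limma, unadjusted p = 0.0035, adjusted p = 0.696). Srrm2, a scaffold of nuclear speckles, read 11.28 and 11.16 against 10.96 and 10.72 (0.38, SE 0.08; unadjusted p = 0.0025, adjusted p = 0.696). Both passed with each array left out, at 0.33 to 0.62 and 0.26 to 0.50. Lsm4, of the ring that holds U6, was lower, at 10.65 and 10.71 against 10.83 and 10.89 (-0.18), and did not pass without fluoxetine replicate 1 (-0.15).

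Among 49 other RNA-binding proteins of neurons, 6 were higher, 0 lower and 43 did not pass. These are 12.2% and 0%, against 3.45% and 3.51% of all genes. Above the median level, where 41 of the 49 lie, 5.73% of genes were higher and 2.17% lower. The counts were 5 and 5 without untreated replicate 1, and 2 and 0 without fluoxetine replicate 1. Cpeb1, which controls translation through cytoplasmic polyadenylation, read 9.92 and 9.90 with fluoxetine against 9.69 and 9.46 (0.33, SE 0.08; limma, unadjusted p = 0.0051, adjusted p = 0.696). Pabpc1, the cytoplasmic poly-A binding protein, read 12.44 and 12.43 against 12.31 and 12.16 (0.20, unadjusted p = 0.0079, adjusted p = 0.696). Leaving out untreated replicate 2 brought these differences to 0.21 for Cpeb1 and 0.12 for Pabpc1, and both genes passed with each array left out. The poly-A spikes were 0.24 higher on the same arrays as these lists.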

How the data were processed

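The authors deposited log2 intensities per probe set, and per the submitters' processing notes these came from RMA in the affy package, with limma also named; no versions, build or further background correction is given in the sources used here. Per the labels' protocols, biotin-labelled cRNA was made from 250 ng of total RNA from tissue punches. Gene names came from the platform annotation: 34945 probe sets had 1 symbol, 932 had several, 9160 had none, and 64 were controls. All 112 genes matched a mouse gene in the RefSeq table of GRCm38.p6 by Entrez number.

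Each gene was represented by the probe set whose mean over all 4 arrays was highest, and no low values were filtered out. Fluoxetine was compared with untreated in limma 3.58.1 (R 4.3.3; lmFit, eBayes with an intensity trend), two-sided, over 18193 genes, with Benjamini-Hochberg adjustment. The fit had 2 residual and 5.15 prior degrees of freedom, and SEs are moderated, so a p-value reflects only how far these 4 arrays scatter, part of which may be technical. Precision is limited by having 2 arrays a group: the smallest two-sided p of an exact permutation test is then 0.333. "Passed", "called", "higher" and "lower" in counts mean an unadjusted p below 0.05, a threshold of 0.05 that no gene met after adjustment. Other probe sets were tested in a fit of all 34945, a separate table of tests. Background subtraction can stretch differences of dim probe sets, and background left in can shrink them. Levels of different probe sets are not comparable. Of the 112 brightest probe sets, 8 carry the suffix s and 6 the suffix x, by which the manufacturer marks possible matches to other transcripts.

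The genes, lists and roles were chosen with earlier results of these data known, so no list was tested. Named genes were those at an unadjusted p below 0.05 (at most 12 a direction), and the brightest and the smallest p of each role. A fixed set of kinases, SR proteins and neuronal families was named too. Hnrnpab, Hnrnpa2b1, Hnrnph1, Rbm4b, Rbm17, Rbm24, Rbm25, Rbm39, Rbm42, Rbm3os and Rbm8a were added after their values were seen. So were Sf3a2, Sf3b3, U2af1, U2af1l4, U2af2 and the named genes of the further lists and markers. Of the 2 further lists, 7 of 80 and 3 of 52 genes had no single-symbol probe set, and 1 of the first, Rbm8a, was counted with the 112. Alternatives were another quantile normalization, subtraction of array medians, no intensity trend, other choices of probe set, a level filter, and leaving out each array. The code was tested on simulated data.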

Additional observations from a re-analysis of the deposited data

How the results depend on the processing

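The count of 19 higher genes ran from 6 to 21 and that of 3 lower genes from 0 to 3 with an array left out, and the median difference of 0.03 ran from -0.00095 to 0.075, the lowest without untreated replicate 1. With a second quantile normalization there were 7 lower genes, with array medians subtracted there was 1, and without the intensity trend there were 7 higher genes. The other planned settings kept both counts within 1.5 times. The median was 0.0052 with the second quantile normalization, 0.06 with array medians subtracted, 0.05 with the mean of all probe sets and 0.09 with the most variable one. Over all genes the 638 lower became 1113 with the second quantile normalization, and the 628 higher became 1119 with array medians subtracted. Directions of the 22 called genes could not turn with an array left out, because their groups did not overlap. Nor could they turn without the trend, which enters only the variance. All 22 kept their direction under each scaling, 21 with the mean of all probe sets and 19 with the most variable one. Signs turned with another probe set for these genes, and the cause was not tested. Hnrnpab was -0.033 with the mean of its probe sets and -0.48 with the most variable, and -0.48, -0.0026 and -0.081 with single ones. Rbm24 was -0.29 with the most variable probe set and -0.29 and -0.13 with single ones. Mbnl3 was 0.11 with the most variable and 0.11 and 0.26 with single ones. Srsf6 was 0.18 with its most variable one. Single probe sets gave -0.065 for Celf1, -0.33 for Elavl2, -0.082 and -0.061 for Rbfox2, -0.25 for Rbm12b2, -0.21 for Sf3b2, -0.093 for Srsf1, -0.051 for Srsf2 and -0.19 for Tra2b. Differences of named genes that did not pass changed sign in 43 cases over 22 genes without reaching an unadjusted p below 0.05. No paired analysis was possible because the labels give no number that the groups share. Leaving out an array leaves a lone sample, which is then assumed to vary like the other group.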

Other observations

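Rbm8a, a core protein of the exon junction complex that marks spliced transcripts, varied within the groups far more than between them. It read 9.84 and 10.38 with fluoxetine and 9.69 and 10.36 without, and its second probe set 8.40 and 8.94 with fluoxetine and 8.21 and 8.82 without. In both groups replicate 1 was the lower array, although the replicate numbers follow the order of deposition and pair no arrays. Over all 112 genes the median gap between arrays was 0.06 within the fluoxetine group and 0.07 within the untreated group, and the median absolute difference between the groups was 0.07.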
